A study of Homo sapiens with 8 samples.

Results

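Fatty acid oxidation in mitochondria and peroxisomes was followed through 34 listed genes of the carnitine shuttle, of beta-oxidation in the mitochondrion and of beta-oxidation in the peroxisome, together with the regulators PPARA and PPARGC1A. The genes were found by matching Ensembl identifiers to symbols, and all 34 were among the 57905 genes counted. The list was named by function, but it was chosen with earlier results of these data known, so it was not tested as a list. Total RNA of 2 human prostate cancer lines was sequenced in 8 libraries. EnzaR is a line resistant to enzalutamide, a blocker of the androgen receptor, and grew with 10 uM enzalutamide throughout. EnzaR cells received 40 nM siRNA against YAP1 (siYAP1) or 40 nM control siRNA (siNC) for 48 h, with 2 libraries per group, so every EnzaR library carries both the drug and a transfection. LNCaP cells are labelled as sensitive to enzalutamide, received neither drug nor siRNA, and gave 1 library per group. They were exposed for 48 h to extracellular vesicles (EVs) from EnzaR cells treated with siYAP1 (EV-siYAP1), with siRNA against CII, here COUP-TFII, the nuclear receptor encoded by NR2F2 (EV-siCII), or with siNC (EV-siNC), and 1 library is a vehicle control without vesicles (control). Nothing in the labels says whether the EnzaR replicates came from separate cultures. The p-values therefore reflect only how far these libraries differ from each other, and that difference may be technical.

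Long-chain fatty acids enter mitochondria as carnitine esters: CPT1 at the outer membrane makes the ester, SLC25A20 carries it across the inner membrane and CPT2 returns the acyl group to coenzyme A. Each turn of the mitochondrial spiral then uses an acyl-CoA dehydrogenase, a hydratase, a hydroxyacyl-CoA dehydrogenase and a thiolase, and the dehydrogenases pass electrons through the ETF proteins to the respiratory chain. Peroxisomes shorten very long and branched chains with oxidases, the multifunctional enzymes and their own thiolases, and export the products as carnitine esters made by CROT and CRAT. AMACR, which makes branched chains accessible to peroxisomal oxidation, is a long-used tissue marker of prostate cancer.

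Total counts lay between 16682669 and 18248939 per library, and a count of 3 corresponded to 0.164 to 0.180 counts scaled to library size (CPM). The 34 genes held 0.348% to 0.379% of the counts of a library. YAP1 was at 6.12 and 7.44 CPM in siYAP1 libraries and at 59.5 and 49.2 CPM in siNC libraries. Its log2 fold change was -3.02 (SE 0.154, edgeR adjusted p = 2.07e-10), so the siRNA target followed the labels. NR2F2, not a target in this comparison, was not called (log2 fold change -0.03, edgeR adjusted p = 0.874). EnzaR cells given siRNA against CII have no library here, so that knockdown cannot be checked. All 10 luminal prostate markers examined exceeded 1 CPM in each library. The basal markers KRT5 and TP63 and the leukocyte markers PTPRC and CD3E were at 0 in all 8 libraries. The remaining gene of each list, KRT14 and CD68, reached at most 0.47 and 0.53 CPM. Of the endothelial genes counted, VWF was at 8.60 to 13.0 CPM and CDH5 at most at 0.05 CPM. The liver genes ALB, APOA1 and TTR reached at most 0.71, 1.47 and 4.77 CPM. Summed over 3 fibroblast genes, nearly all of it COL1A1, the level was 18.9 to 23.0 CPM in EnzaR and 93.3 to 109 CPM in LNCaP libraries. Transcripts of the mitochondrial genome made up 6.65% to 6.83% of EnzaR counts and 4.76% to 5.37% of LNCaP counts.

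In these cells the most abundant transcripts of the list came mostly from genes of mitochondrial enzymes, and flux through the pathway was not measured. On the authors' FPKM scale, which divides by gene length and so allows genes to be compared, ECHS1, the short-chain enoyl-CoA hydratase, ranked first, with a mean of 309 FPKM in siNC and 297 FPKM in the LNCaP control. ACADVL, the very-long-chain acyl-CoA dehydrogenase, ranked second at 126 FPKM in siNC and 147 FPKM in control. The third place differed between the lines: it was HADHA, the hydratase and dehydrogenase subunit of the trifunctional protein, at 61.8 FPKM in siNC, and CRAT, which transfers acetyl groups to carnitine, at 103 FPKM in control. The liver-type entry enzyme CPT1A stood at 19.5 FPKM in siNC and 24.9 FPKM in control, and its muscle-type paralog CPT1B at 0.52 FPKM in siNC and 0.62 FPKM in control. In all, 19 of the 34 genes exceeded 10 FPKM in siNC and 14 did so in control, while 6 genes in siNC and 5 in control were below 1 FPKM. ACADL, the long-chain acyl-CoA dehydrogenase, had 11 counts over all 8 libraries, and the coactivator gene PPARGC1A had 30. The plot of levels in all libraries shows this order.

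**Figure D1:**
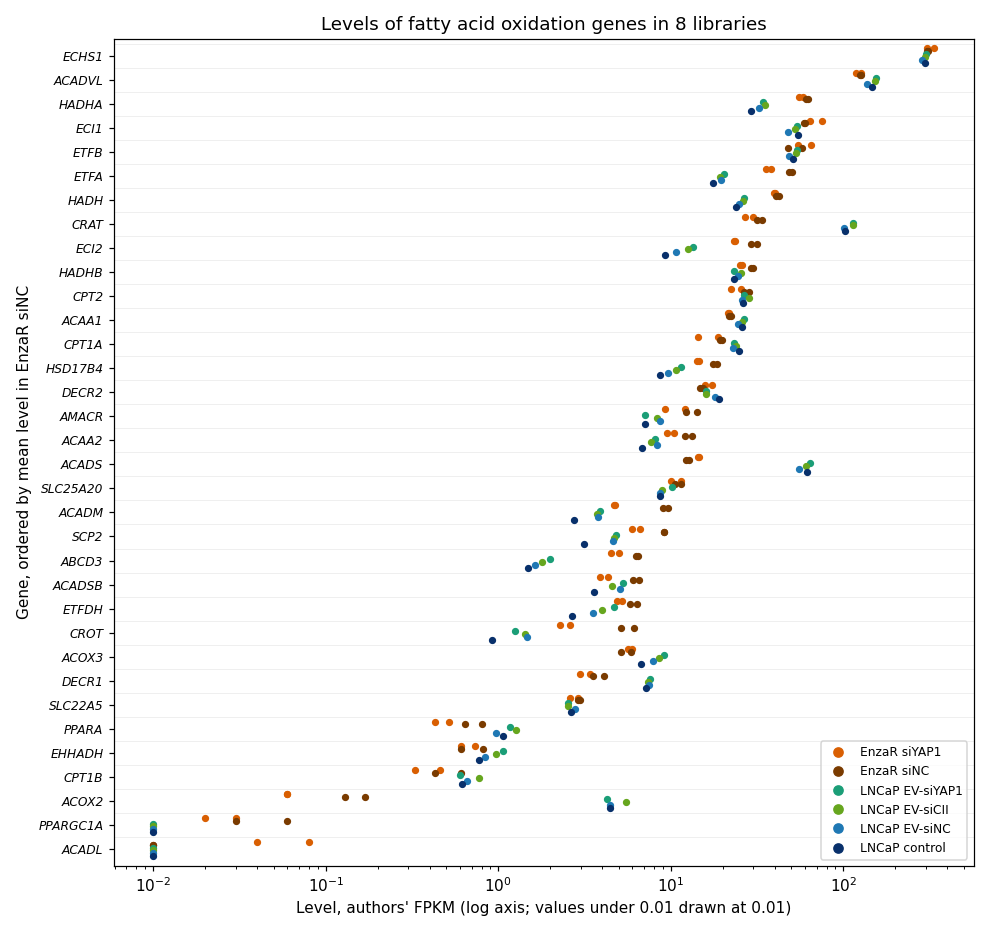
Level of each of the 34 genes in the 8 libraries, as the authors' FPKM on a log axis, with genes ordered by their mean in EnzaR siNC and values under 0.01 drawn at 0.01. ECHS1 and ACADVL lie above 100 FPKM in every library, and ACOX2, CRAT and ACADS show the widest gaps in which LNCaP libraries are higher.

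The comparison of siYAP1 with siNC in EnzaR cells asks which transcripts differ once YAP1, the transcriptional co-activator restrained by Hippo signalling, is depleted. Transcripts for the peroxisomal export enzyme CROT and the medium-chain dehydrogenase ACADM fell to 0.477 and 0.553 times their siNC levels. ACADSB, SCP2 and ETFA fell by less, ECI1 rose, and 25 further genes were not called. Of the 34 genes, 31 passed the filter on low counts (ACADL, ACOX2 and PPARGC1A did not), and 5 were lower and 1 higher at an adjusted p under 0.05 (edgeR quasi-likelihood test, Benjamini-Hochberg over 14948 genes). Over all genes tested, 6.22% were lower, 5.83% higher and 12.1% called in either direction. The median log2 fold change was -0.11 over the 31 genes and -0.03 over all genes tested. With library totals alone as the scale, which shifts the median of all genes by -0.10, 8 were lower and 0 higher. Over all 14948 genes, 1416 were then lower and 293 higher.

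CROT attaches medium-chain acyl groups, shortened in the peroxisome, to carnitine for transfer to mitochondria (ENSG00000005469, chromosome 7, 86974997 to 87029111, hg19). It was at 12.8 and 13.9 CPM in siYAP1 libraries and at 25.2 and 30.8 CPM in siNC libraries, so the groups did not overlap. Its means were 13.4 ± 0.83 CPM in siYAP1 and 27.98 ± 4.0 CPM in siNC (SD, n = 2 each), with a log2 fold change of -1.09, SE 0.15 and edgeR adjusted p = 0.000392. ACADM opens the spiral on medium chains and is the enzyme deficient in the commonest inherited disorder of fatty acid oxidation (ENSG00000117054, chromosome 1, 76190036 to 76253260). It was at 25.5 and 23.8 CPM in siYAP1 and at 42.5 and 46.5 CPM in siNC libraries, again with a clear gap. The means were 24.6 ± 1.18 CPM in siYAP1 and 44.5 ± 2.79 CPM in siNC (SD, n = 2 each), with a log2 fold change of -0.88, SE 0.12 and edgeR adjusted p = 0.000403. RABGGTB overlaps ACADM, held more counts, and had a log2 fold change of 0.24 (edgeR adjusted p = 0.124), so its reads did not move the way ACADM did. CROT overlaps no other gene of the table.

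The promoters of CROT and ACADM, the genes with the largest falls, and of ECI1, the gene that rose, are shown because they share a 9-base run. Each is the 250 bases before the start of the gene in RefSeq (GRCh38.p14), 5′ to 3′ on the gene's strand, at chr7:87345414-87345663 on the plus strand for CROT, chr1:75724459-75724708 on the plus strand for ACADM and chr16:2251588-2251837 on the minus strand for ECI1. Capitals mark the run GGGCGGGAC, an extended GC box, which was picked after the sequences had been read.
CROT: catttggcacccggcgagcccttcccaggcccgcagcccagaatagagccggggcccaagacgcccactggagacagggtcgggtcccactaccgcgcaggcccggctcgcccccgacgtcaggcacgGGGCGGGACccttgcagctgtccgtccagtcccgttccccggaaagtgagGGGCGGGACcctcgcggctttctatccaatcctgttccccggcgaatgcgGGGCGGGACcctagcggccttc
ACADM: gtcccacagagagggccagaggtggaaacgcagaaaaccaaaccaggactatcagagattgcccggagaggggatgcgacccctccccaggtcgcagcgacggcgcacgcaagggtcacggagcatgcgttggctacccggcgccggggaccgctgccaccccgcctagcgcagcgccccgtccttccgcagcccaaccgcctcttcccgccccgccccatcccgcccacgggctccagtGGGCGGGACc
ECI1: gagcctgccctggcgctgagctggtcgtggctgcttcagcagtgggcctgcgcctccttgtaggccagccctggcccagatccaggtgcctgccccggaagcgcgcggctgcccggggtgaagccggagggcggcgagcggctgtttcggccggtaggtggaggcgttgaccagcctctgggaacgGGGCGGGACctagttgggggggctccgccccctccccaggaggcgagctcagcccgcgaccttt
The run stands 3 times in the CROT window, at -122, -72 and -22 counted from the gene start, and once each in ACADM at -10 and in ECI1 at -64. Promoters were listed for 26 of the 34 genes. On either strand the run occurred in 6 of these 26 (23.1%) and in 2.85% of all 27305 promoters. The 6 include the 3 genes it was read from, so these shares support nothing about the list, and the other carriers, HSD17B4, SLC22A5 and ACADS, were not called with siYAP1. The GC box GGGCGG, which the run contains, was in 20 of 26 (76.9%) and in 42.3% of all promoters. The core letters GGAATG, bound by the TEAD partners of YAP1, were in 0 of 26 windows and in 11.9% of all promoters. AGGTCA, the DNA element read by PPARA and COUP-TFII, was in 0 of 26 and in 12.1% of all promoters. The direct repeat of this element with 1 base between was in 0 of 26 and in 0.0183% of all. These matches are descriptions of the letters in short windows, and the run is present both in genes that fell and in one that rose.

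Smaller falls concerned enzymes on both sides of the pathway. ACADSB, a dehydrogenase of short and branched chains that also serves isoleucine breakdown, was at 27.2 and 28.8 CPM in siYAP1 and at 37.6 and 41.7 CPM in siNC libraries (log2 fold change -0.53, SE 0.12, edgeR adjusted p = 0.0122). SCP2, which encodes a lipid carrier and the peroxisomal thiolase for branched chains, was at 55.4 and 59.2 CPM in siYAP1 and at 74.8 and 76.4 CPM in siNC libraries (log2 fold change -0.43, SE 0.10, edgeR adjusted p = 0.0155). ETFA, the alpha subunit of the electron transfer flavoprotein, was at 202 and 204 CPM in siYAP1 and at 240 and 258 CPM in siNC libraries (log2 fold change -0.32, SE 0.09, edgeR adjusted p = 0.031). In none of these genes did the groups overlap, and the siYAP1 libraries were the closer pair for ETFA. Uncalled genes such as HADH and ECHS1 did not overlap either. With 2 libraries per group, a lack of overlap therefore adds no support to any call, those of CROT and ACADM included. ECI1, the mitochondrial isomerase that repositions double bonds of unsaturated chains, was at 273 and 221 CPM in siYAP1 and at 189 and 196 CPM in siNC libraries (log2 fold change 0.33, SE 0.10, edgeR adjusted p = 0.0445). The siYAP1 libraries of ECI1 differed from each other more than siYAP1 replicate 2 differed from siNC.

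**Figure D2:**
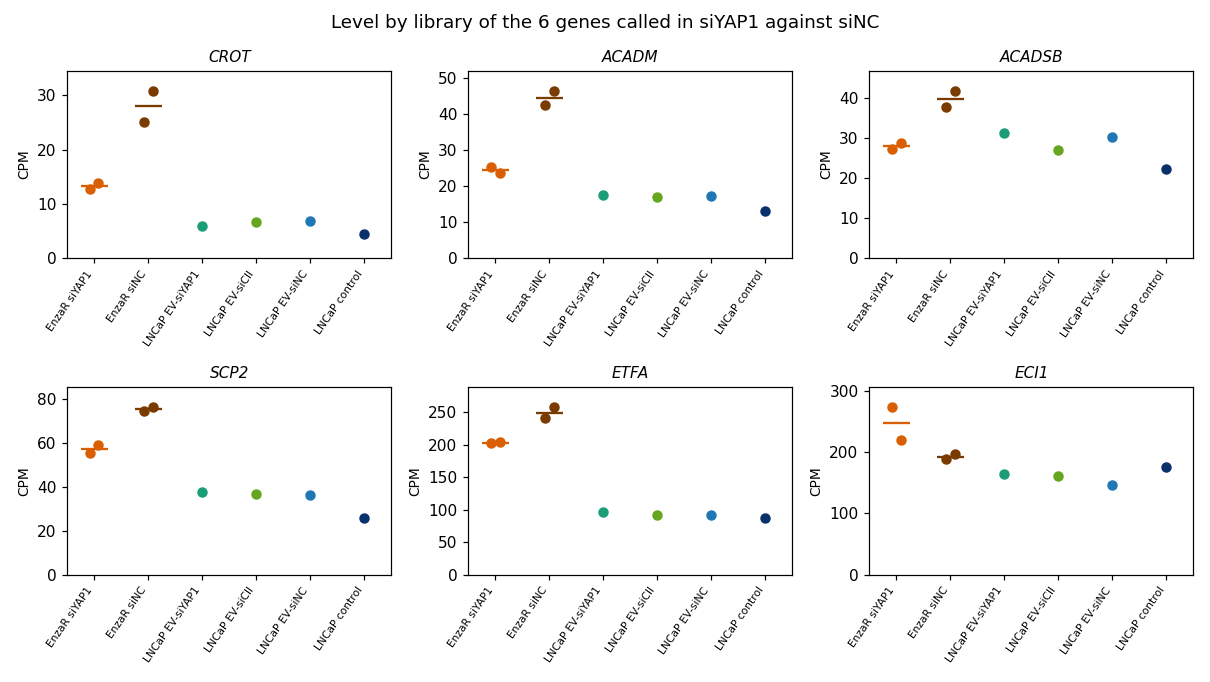
Level in CPM, scaled over all 8 libraries, of the 6 genes called between siYAP1 and siNC, with 1 point per library and a bar at the mean of each EnzaR pair. CROT, ACADM, ACADSB, SCP2 and ETFA have lower points in siYAP1 than in siNC, ECI1 has higher ones, and the LNCaP libraries are at the right.

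Most genes of the pathway were not called. None of the 4 carnitine shuttle genes was called: CPT1A was at 106 and 131 CPM in siYAP1 and at 128 and 127 CPM in siNC (log2 fold change -0.14, SE 0.11, edgeR adjusted p = 0.424), and CPT2 at 85.5 and 92.6 CPM in siYAP1 and 94.8 and 91.4 CPM in siNC (log2 fold change -0.09, SE 0.10). In both genes the groups overlapped. The 5 genes of the mitochondrial hydratase, dehydrogenase and thiolase steps had log2 fold changes between -0.25 and 0.16. HADHA was nearly level, at 246 and 249 CPM in siYAP1 and 246 and 244 CPM in siNC (log2 fold change -0.01, SE 0.09). AMACR was at 50.2 and 62.6 CPM in siYAP1 and at 67.8 and 59.7 CPM in siNC, with overlapping groups (log2 fold change -0.20, SE 0.12, edgeR adjusted p = 0.273). PPARA, the nuclear receptor that switches on many of these genes, was at 6.99 and 5.61 CPM in siYAP1 and at 9.68 and 7.81 CPM in siNC (log2 fold change -0.51, SE 0.21, edgeR adjusted p = 0.109). Its groups did not overlap, yet the difference did not pass the threshold at this depth. Just short of the threshold were the peroxisomal transporter ABCD3 (-0.32, edgeR adjusted p = 0.0652), the peroxisomal isomerase ECI2 (-0.28, edgeR adjusted p = 0.0703) and the short-chain dehydrogenase ACADS (0.31, edgeR adjusted p = 0.0829). With the correction for GC content and length described below, ABCD3, ECI2 and ACADS had log2 fold changes of 0.006, -0.13 and 0.02. The plasma membrane carnitine carrier SLC22A5, the carrier SLC25A20, the peroxisomal thiolase ACAA1 and the multifunctional enzyme EHHADH had log2 fold changes of 0.02, 0.06, 0.08 and 0.01. All 25 uncalled genes lay between -0.51 and 0.31. By compartment, 3 of 18 mitochondrial genes tested were lower and 1 higher, and 2 of 11 peroxisomal genes were lower and 0 higher.

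**Figure D3:**
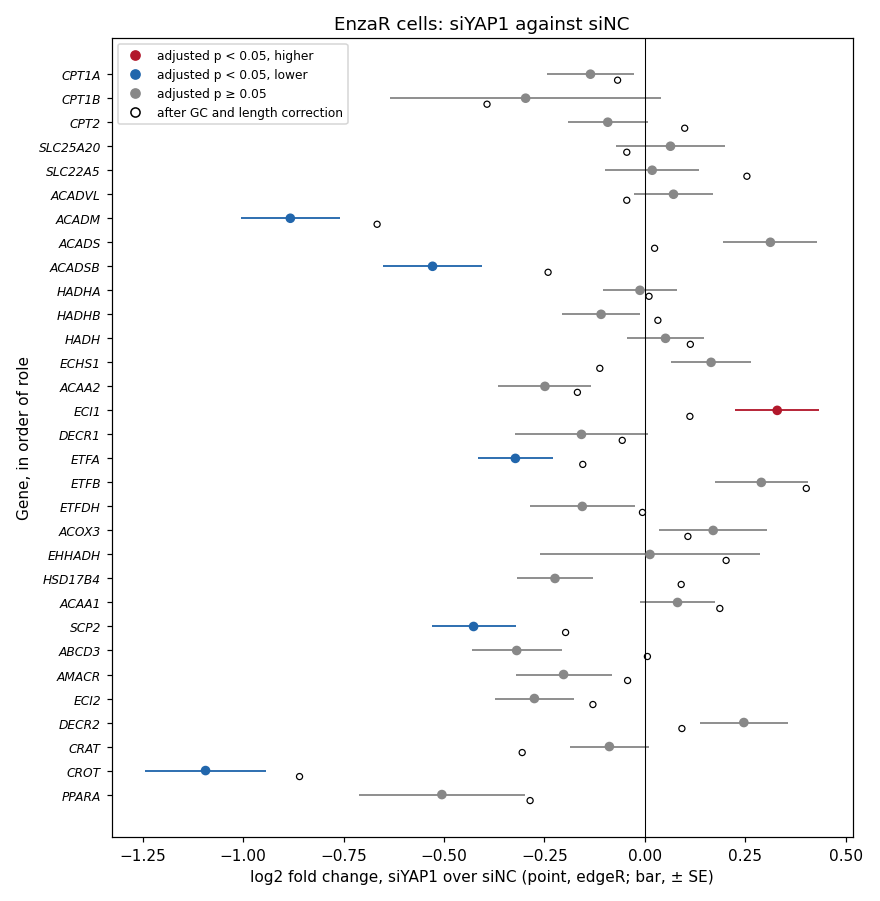
Log2 fold change of siYAP1 over siNC for the 31 genes tested, in order of role, with bars of 1 SE, coloured by call, and open circles for the value corrected for GC content and length. CROT at -1.09 and ACADM at -0.88 lie farthest from 0 and keep most of their size after correction, whereas ACADSB, SCP2, ETFA and ECI1 move toward 0.

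GC content moved with the fold changes. Across 14547 genes with a GC value, the log2 fold change and transcript GC content had a Spearman correlation of 0.48, and across the 31 genes of the pathway one of 0.68. The genes are not independent replicates, and all points share the same 4 libraries. The 5 genes that fell had 38.9% to 43.8% GC, and ECI1 had 61.4%. Once GC content and exonic gene length were corrected for, ACADM (log2 fold change -0.67, edgeR adjusted p = 0.00266) and CROT (-0.86, edgeR adjusted p = 0.00191) remained lower. ACADSB, SCP2, ETFA and ECI1 were then not called, with log2 fold changes of -0.24, -0.20, -0.15 and 0.11, and ETFB, the beta subunit of the flavoprotein, was called higher (0.40, edgeR adjusted p = 0.0484). Uncorrected, ETFB was at 477 and 382 CPM in siYAP1 and at 308 and 381 CPM in siNC libraries, with a gap between the groups narrower than either pair's own difference. Without siYAP1 replicate 1, 26 genes in all were called, 15 higher and 11 lower, and of the pathway only ACADM (edgeR adjusted p = 0.0367). CROT then had a log2 fold change of -1.04 and an edgeR adjusted p of 0.0657.

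The second comparison sets EnzaR siNC against the LNCaP control and describes how the pathway is set in the resistant line. The line, the drug in the medium and siRNA transfection cannot be told apart in it, and LNCaP control is a lone library assumed to vary like the EnzaR pairs. The peroxisomal transporter ABCD3, the export gene CROT, the medium-chain dehydrogenase ACADM and the electron transfer genes ETFA and ETFDH were higher in EnzaR siNC. ACOX2, ACADS and CRAT, the other export gene, were lower. ETFB, the remaining electron transfer gene, was not called. Of 33 genes tested, 15 were higher and 7 lower, against 29.8% and 28.6% of the 17537 genes tested in all, of which 58.4% were called in either direction. The median log2 fold change was 0.17 over the 33 genes and -0.002 over all genes (edgeR, 6 groups fitted over 8 libraries). The fibroblast genes and the share of mitochondrial transcripts given above also differed between the lines, and their part in these differences was not tested.

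CROT showed the largest rise with a measured level on both sides, at 25.2 and 30.8 CPM in siNC libraries and 4.53 CPM in the LNCaP control (log2 fold change 2.61, SE 0.24, edgeR adjusted p = 6.63e-10). ABCD3, the transporter that brings branched and dicarboxylic acyl-CoAs into peroxisomes (chromosome 1, 94883933 to 94984222), was at 49.0 CPM in both siNC libraries and 11.2 CPM in control (2.12, SE 0.17). All 4 EnzaR libraries lay above all 4 LNCaP libraries for ABCD3, with 39.0 to 49.0 CPM in EnzaR and 11.2 to 14.5 CPM in LNCaP. ACADM was at 42.5 and 46.5 CPM in siNC and 13.0 CPM in control (1.76, SE 0.18). ECI2, the isomerase of peroxisomes, was at 131 and 147 CPM in siNC and 42.1 CPM in control (1.72, SE 0.14). The siNC libraries also serve in the comparison with siYAP1, so CROT and ACADM have lower values in siYAP1 and higher values than LNCaP in the same siNC libraries. In the siYAP1 libraries CROT stood at 12.8 and 13.9 CPM and ACADM at 25.5 and 23.8 CPM, still above the 4 LNCaP libraries, which had 4.53 to 6.88 CPM of CROT and 13.0 to 17.6 CPM of ACADM. PPARGC1A had 5 and 12 counts in siNC and 0 in control, at least 2.80-fold higher against a floor of 3 counts in the control library (edgeR adjusted p = 0.0294). PPARGC1A passed the filter on low counts only through the 12 counts of siNC replicate 2. Its call among the 15 higher genes, and its place among the 18 without overlap, therefore add no support. Without siNC replicate 2 the bound was 1.63-fold and the gene was not tested. The call was lost with the GC correction (edgeR adjusted p = 0.0559) and without siYAP1 replicate 1 or 2 (0.0751 and 0.0736).

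ACOX2, the peroxisomal oxidase of branched chains and bile acid intermediates (chromosome 3, 58490863 to 58523046), was nearly silent in EnzaR. It had 12 and 9 counts in siNC and 304 in the LNCaP control, or 0.66 and 0.50 CPM in siNC against 17.0 CPM in control (log2 fold change -4.87, SE 0.29, edgeR adjusted p = 1.95e-13). The siYAP1 libraries had 4 and 4 counts of ACOX2, and the other LNCaP libraries had between 288 and 374. ACADS, the short-chain dehydrogenase, was at 33.2 and 32.9 CPM in siNC and 160 CPM in control (-2.29, SE 0.12), and CRAT at 118 and 129 CPM in siNC and 386 CPM in control (-1.65, SE 0.11). DECR1, the mitochondrial dienoyl-CoA reductase for unsaturated chains, was at 14.3 and 12.6 CPM in siNC and 24.9 CPM in control (-0.90, SE 0.18). PPARA was at 9.68 and 7.81 CPM in siNC and 12.8 CPM in control (-0.56, SE 0.22, edgeR adjusted p = 0.0349). That call was lost with DESeq2 (adjusted p = 0.189) and without siNC replicate 2 (edgeR adjusted p = 0.172), siYAP1 replicate 1 (0.069) or siYAP1 replicate 2 (0.068). DECR1 and CRAT overlap NBN and PTPA, whose own log2 fold changes were 0.80 and -0.16, neither of them as low as that of the gene itself. Partners of genes called higher moved with them: RABGGTB, which overlaps ACADM and held more counts, had a log2 fold change of 0.77 (edgeR adjusted p = 2.02e-05). PPID and C4orf46, which overlap ETFDH, had values of 1.22 and 2.37. Reads shared with these partners cannot be told apart, so the rises of ACADM and ETFDH between the lines are uncertain to that extent.

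The remaining calls were spread over the steps. Of the trifunctional protein, HADHA was at 246 and 244 CPM in siNC and 115 CPM in control (1.08, SE 0.12), and its partner HADHB had a log2 fold change of 0.36 (edgeR adjusted p = 0.0132, and 0.0563 or 0.0562 without siNC replicate 1 or 2). ETFA and ETFDH, which hand electrons to ubiquinone, had values of 1.502 and 1.19, and ETFB was not called (0.05). SCP2 and HSD17B4, the D-bifunctional protein, had values of 1.54 and 1.06, and AMACR, at 67.8 and 59.7 CPM in siNC and 34.1 CPM in control, one of 0.89. ACAA2, ACADSB and HADH were higher by 0.91, 0.82 and 0.80, calls that did not last after the GC correction below, and ACADSB was at 0.27 (edgeR adjusted p = 0.106) with 4 EnzaR against 4 LNCaP libraries. CPT1A was lower at 128 and 127 CPM in siNC and 161 CPM in control (-0.35, edgeR adjusted p = 0.0219), a call lost without siNC replicate 1 (0.0674) or 2 (0.079). DECR2 was lower by a log2 fold change of -0.33, against -0.02 with 4 EnzaR against 4 LNCaP libraries and -0.28 without siNC replicate 1 (edgeR adjusted p = 0.158), and CPT2 was not called (0.08). Of the 22 calls, 13 held in every one of 11 alternatives and 9 were lost in at least 1. Among the 18 mitochondrial genes tested 8 were higher and 3 lower, and among 12 peroxisomal genes 6 were higher and 3 lower. Over all 4 libraries of each line, 18 of 33 genes were higher in EnzaR without overlap and 7 lower, against 31.3% and 31.6% of all genes. The 11 genes not called in siNC against control, ECHS1, ACADVL, ECI1, ACAA1 and EHHADH among them, had log2 fold changes between -0.28 and 0.36.

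**Figure D4:**
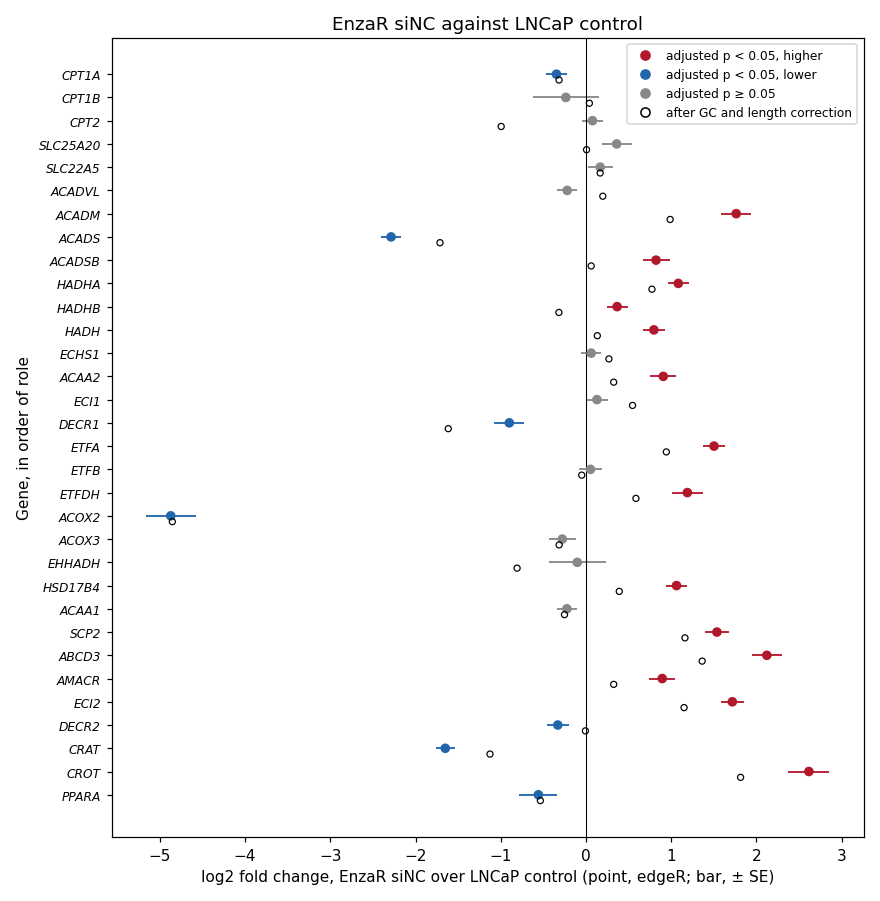
Log2 fold change of EnzaR siNC over LNCaP control for 32 of the 33 genes tested, in order of role, with bars of 1 SE and open circles after correction for GC content and length. PPARGC1A is not drawn because the control library had 0 counts. ACOX2 lies lowest at -4.87 and CROT highest at 2.61, and HADHB, CPT2, ACADVL, ETFB and CPT1B cross 0 after correction.

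Between the lines, too, fold changes moved with GC content, with a Spearman correlation of -0.40 across 16988 genes and -0.67 across the 33 genes. The 15 higher genes had 37.6% to 49.4% GC and the 7 lower genes 43.8% to 64.6%. After correction, which shifts the median of all genes by -0.12, 11 of the 33 genes were higher and 10 lower. Over all 17537 genes tested, 4237 were then higher and 5336 lower. CROT (1.81), ABCD3 (1.36), SCP2 (1.16), ECI2 (1.15), ACADM (0.99) and ETFA (0.94) remained higher, and ACOX2 (-4.85), ACADS (-1.71), DECR1 (-1.62) and CRAT (-1.13) remained lower. HADHB turned from higher to lower (0.36 before and -0.32 after correction), and CPT2 was called lower at -0.995. No longer called were AMACR (0.33, edgeR adjusted p = 0.0554), ACAA2 (0.32, 0.0538), HADH (0.13, 0.313), ACADSB (0.06, 0.743), DECR2 (-0.01, 0.965) and PPARGC1A.

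The LNCaP libraries ask whether vesicles from EnzaR cells, and the loss of YAP1 or CII in the cells that shed them, go with a change in the recipient cells. Each condition is a single library, so ratios have no replicate check, and intervals are exact binomial limits at 95% that cover counting error only. A ratio was formed for the 29 genes with 10 CPM in either library (CPT1B, ACADL, EHHADH, CROT and PPARGC1A fell below), and a log2 ratio of 0.32 in either direction was used to sort them. For scale, 0 of 28 genes of the pathway passed that ratio between the siNC replicates, where 6.67% of all genes were higher and 3.12% lower in replicate 2. Between the siYAP1 replicates 2 of 28 did, with 6.08% of all genes higher and 3.79% lower. The 28 include CROT and lack ACOX2 and PPARA, which were below 10 CPM in EnzaR and so have no such scale.

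In EV-siYAP1 against EV-siNC, ETFDH, which passes electrons from ETF to ubiquinone, was the 1 gene past 0.32 higher, and 0 were lower, against 4.06% and 3.85% of all genes. ETFDH was at 19.8 CPM in EV-siYAP1 and 14.9 CPM in EV-siNC (log2 ratio 0.41, interval 0.18 to 0.64), while EV-siCII had 17.1 CPM and control 11.9 CPM. The next largest ratios were 0.31 for ECI2 (interval 0.18 to 0.44), 0.28 for ABCD3 (interval 0.02 to 0.55) and -0.28 for AMACR (interval -0.44 to -0.12). The median log2 ratio was 0.09 over the 29 genes and 0.01 over all genes. In EV-siCII against EV-siNC, PPARA and ACOX2 passed 0.32 and 0 genes passed -0.32, against 2.08% and 3.21% of all genes. PPARA was at 14.6 CPM in EV-siCII and 11.1 CPM in EV-siNC (log2 ratio 0.40, interval 0.13 to 0.67). ACOX2 was at 20.3 CPM in EV-siCII and 16.1 CPM in EV-siNC (log2 ratio 0.33, interval 0.11 to 0.55). The median was 0.10 over the 29 genes and 0.01 over all genes. Above 0 lay 23 of the 29 ratios in EV-siYAP1 against EV-siNC, with 51.1% of all genes, and 21 of 29 in EV-siCII against EV-siNC, with 51.7%. Both comparisons share the EV-siNC library. The 34 genes took 0.378% of counts in EV-siYAP1 and 0.375% in EV-siCII, against 0.349% in EV-siNC, and 0.355% in control.

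In EV-siNC against control, 4 genes passed 0.32 higher and 0 lower, where 13.6% and 4.01% of all genes did. SCP2 was at 36.5 CPM in EV-siNC and 25.9 CPM in control (log2 ratio 0.49, interval 0.32 to 0.67), ACADSB at 30.2 CPM in EV-siNC and 22.3 CPM in control (0.44, interval 0.25 to 0.63) and ACADM at 17.2 CPM in EV-siNC and 13.0 CPM in control (0.40, interval 0.15 to 0.65). ETFDH was at 14.9 CPM in EV-siNC and 11.9 CPM in control (0.33, interval 0.07 to 0.60). For SCP2, ACADSB, ACADM and ETFDH the control was the lowest of the 4 LNCaP libraries. The libraries given vesicles spanned 36.5 to 37.8 CPM for SCP2 and 17.1 to 17.6 CPM for ACADM. For ACADSB they spanned 27.1 to 31.1 CPM, nearly as wide as its distance from the control. For ETFDH they spanned 14.9 to 19.8 CPM, wider than its distance from the control. CPT1A was at 142 CPM in EV-siNC and 161 CPM in control (-0.19), and AMACR at 39.6 CPM in EV-siNC and 34.1 CPM in control (0.21), while CPT2 and HADHA had log2 ratios of -0.08 and 0.07. The log2 ratio and GC content had a Spearman correlation of -0.54 across 8948 genes here. After correction 0 genes of the pathway passed 0.32 higher and 1, PPARA, passed lower (-0.38), against 4.91% and 4.89% of all genes. SCP2 was then at 0.26, ACADSB at 0.17 and ACADM at 0.17. Among the vesicle comparisons with EV-siNC, ETFDH (0.38) and PPARA (0.41) stayed past 0.32 after correction, and ACOX2 did not (0.31).

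**Figure D5:**
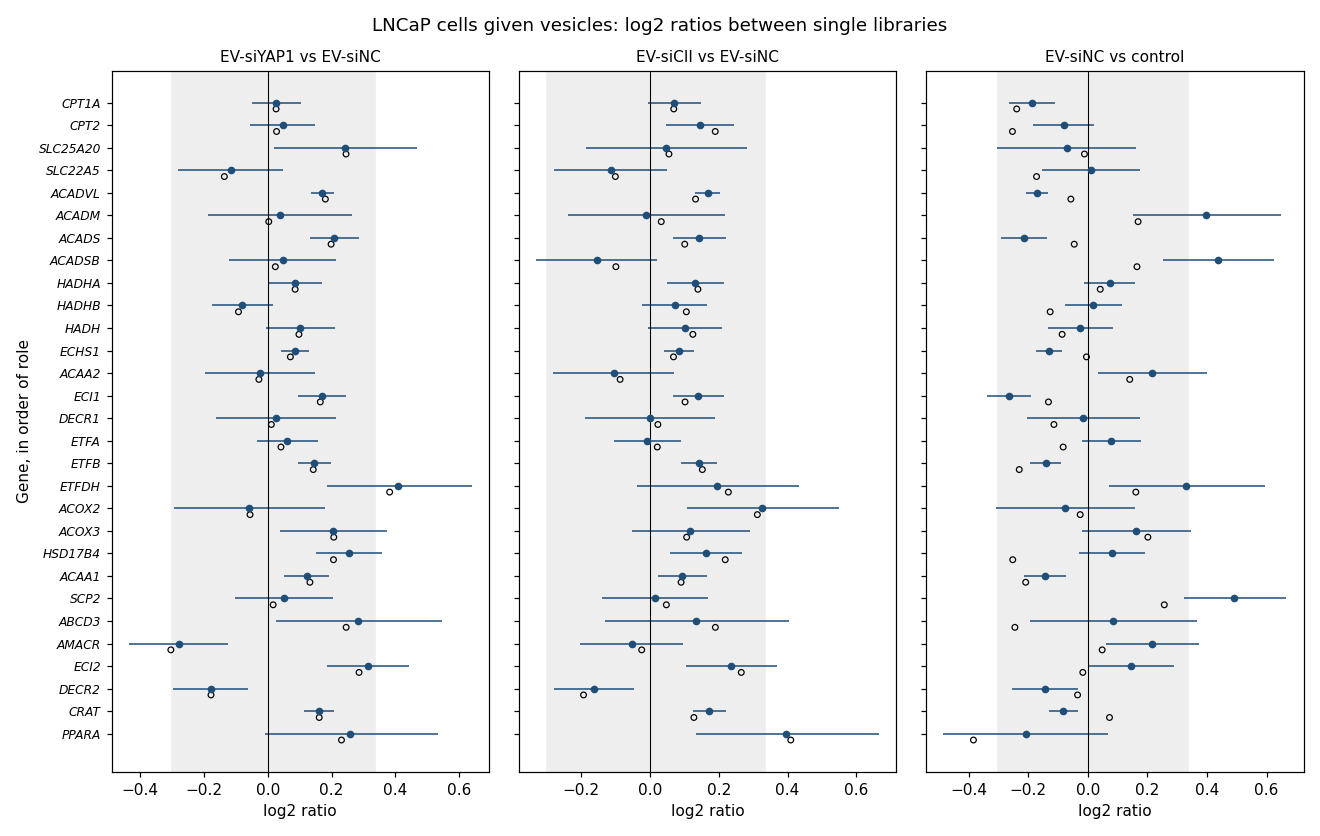
Log2 ratio between single LNCaP libraries for 29 genes, with exact binomial intervals for counting error and open circles after correction for GC content and length. The grey band spans the ratios of 28 pathway genes between EnzaR replicates, from -0.30 to 0.33. The 28 include CROT and lack ACOX2 and PPARA. Most points of all 3 comparisons lie inside the band.

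Genes next to the pathway were counted from 7 lists with 68 entries, of which 66 were in the table. In siYAP1 against siNC 3 of 61 tested were higher and 7 lower, where 5.83% and 6.22% of all genes were. ACBD5, a peroxisomal tether that binds very long acyl-CoAs, was at 9.68 and 10.5 CPM in siYAP1 and at 17.4 and 21.7 CPM in siNC (log2 fold change -0.98, SE 0.17, edgeR adjusted p = 0.00202). PEX3, which directs membrane proteins to the peroxisome, was at 13.0 and 14.1 CPM in siYAP1 and at 17.2 and 21.3 CPM in siNC (-0.53, edgeR adjusted p = 0.0352). PEX6, an ATPase of peroxisomal import, was at 91.6 and 85.6 CPM in siYAP1 and at 64.2 and 61.5 CPM in siNC (0.47, edgeR adjusted p = 0.00889), and ACOT8, a peroxisomal thioesterase, at 51.7 and 45.1 CPM in siYAP1 and 33.8 and 38.0 CPM in siNC (0.40, edgeR adjusted p = 0.0361). By list, peroxisome biogenesis had 2 higher and 1 lower of 15. The other peroxisomal lipid enzymes had 1 higher and 2 lower of 12, and the thioesterases and acyl-CoA binding proteins 0 higher and 2 lower of 8. The PPAR and coactivator regulators had 1 of 9 lower. The other acyl-CoA dehydrogenases and the malonyl-CoA and pyruvate switch had 0 of 6 called each.

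In EnzaR siNC against the LNCaP control 27 of 62 of these neighbours were higher and 17 lower, where 29.8% and 28.6% of all genes were. DBI, the acyl-CoA binding protein, was at 204 and 194 CPM in siNC and 57.1 CPM in control (log2 fold change 1.79, SE 0.13, edgeR adjusted p = 9.42e-12), and the cytosolic thioesterase gene ACOT7 at 192 and 206 CPM in siNC and 66.5 CPM in control (1.57, SE 0.13). ACAD10, an acyl-CoA dehydrogenase homolog, was at 34.2 and 29.4 CPM in siNC and 99.2 CPM in control (-1.65, SE 0.13). By list, higher and lower counts were 6 and 3 of 15 for peroxisome biogenesis, 6 and 3 of 12 for other peroxisomal lipid enzymes and 5 and 2 of 8 for thioesterases and binding proteins. They were 3 and 4 of 10 for regulators, 2 and 2 of 6 for the malonyl-CoA and pyruvate switch and 1 and 3 of 6 for other acyl-CoA dehydrogenases.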

How the data were processed

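RNA-seq of 8 libraries was used. Per the submitters' processing notes, cutadapt 1.9.1, HISAT2 2.0.1, HTSeq 0.6.1, DESeq2 and the build hg19 (GRCh37) were involved, without stated roles. Neither annotation release nor strand setting is given in the sources used here. The deposited table gives the authors' raw counts and FPKM per gene. The authors' FPKM equalled count over gene length and column total for all 463240 values within 0.0051, and served for levels between genes.

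Counts were tested with the robust quasi-likelihood fit of edgeR 4.0.16 under R 4.3.3 after filterByExpr and TMM scaling, adjusted by Benjamini-Hochberg over all genes at a threshold of 0.05. EnzaR groups were fitted on their 4 libraries, and EnzaR siNC against LNCaP control in 6 groups over 8 libraries. LNCaP libraries were compared as log2 ratios of TMM-scaled CPM with a prior count of 2. Printed CPM are scaled over 8 libraries, fold changes over those compared, which differ by 0.03 on the log2 scale within EnzaR. Scripts were tested on simulated data. No pair of libraries agreed within sampling noise (lowest chi-square per degree of freedom 5.03).

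Without a stated strand setting, reads of overlapping genes cannot be told apart. Of the 34 genes 26 overlap another, and for 10 an overlapping gene held at least 10% of their counts (CPT1B, CPT2, ACADM, ACADL, HADHA, HADHB, DECR1, ETFDH, ACOX3 and CRAT), whose values are uncertain to that extent. Transcript GC content was looked up by identifier as that of the longest GENCODE transcript of each gene (GRCh38), which need not be the one expressed. The correction is a smooth surface of GC content and exonic gene length per library (mgcv 1.9.3). Symbols were matched for 51996 identifiers, holding 99.24% of counts. Promoter sequences are RefSeq's (GRCh38.p14).

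The genes, lists and tests were chosen with earlier results of these data known. Full values are given for genes called in siYAP1 against siNC, the 5 largest per direction among those called between the lines, those past a log2 ratio of 0.32 between vesicle libraries, and CPT1A, CPT2, HADHA, AMACR and PPARA, and for at most 4 genes per comparison of the related lists, by lowest p. A gene that this rule took, and its list, are not reported here. ETFB, HADHB and others were added after their values were seen. Alternatives were other scalings, filters and prior counts, DESeq2 1.42.0, limma-voom (limma 3.58.1), a block on replicate number, other sample sets, the GC correction, and each EnzaR library left out. Bulk libraries cannot tell fewer expressing cells from less RNA per cell.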

Additional observations from a re-analysis of the deposited data

How the results depend on the processing

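In siYAP1 against siNC, 6 genes were called (1 higher, 5 lower, median -0.11). Library totals alone gave 0 higher and 8 lower with a median of -0.21, where 293 of all 14948 genes were higher and 1416 lower. The GC and length correction gave 3 called, 2 of them lower, with a median of -0.043. Over all genes, 383 were then higher and 233 lower. There were 0 higher with limma-voom and 2 with no filter on low counts. Over all genes, 850 of 14948 were higher with limma-voom and 1010 of 26346 with no filter. Leaving out 1 EnzaR library gave 1 to 6 called, 0 to 2 higher, 1 to 4 lower and medians of -0.155 to -0.062. ACADM was called lower in 12 of 12 alternatives, CROT in 11, ACADSB and SCP2 in 9 each, ETFA in 6, and ECI1 higher in 5. Same-numbered libraries did not deviate together (correlation -0.08 over a pair of numbers). A single pair of numbers cannot show whether the libraries were paired, and the labels do not say. With replicate number as a block, 4 genes were lower and 0 higher, and ETFA and ECI1 were not called. Over all 14948 genes, 846 were lower and 564 higher with this block. Of the uncalled genes, CPT1A, CPT2, HADHA, AMACR and PPARA were followed through every alternative. Among them the sign changed for CPT1A with 1 library left out (range -0.29 to 0.0044, the top value without siYAP1 replicate 1). It also changed for CPT2 with the GC correction (0.10), and for HADHA with RLE factors or DESeq2 (0.0065) and the GC correction (0.010). Uncalled genes not followed changed sign with the GC correction too, among them HSD17B4 (from -0.22 to 0.09), ABCD3 (from -0.32 to 0.006) and ECHS1 (from 0.16 to -0.11).

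In EnzaR siNC against LNCaP control the median of 0.17 was 0.12 with RLE factors or DESeq2, 0.27 with no filter, 0.25 for 4 EnzaR against 4 LNCaP libraries, 0.13 with the GC correction and 0.12 to 0.20 with 1 library left out. CPT2 turned to -0.995 with the GC correction. In EV-siNC against control the median of -0.01 was 0.051 with library totals, 0.015 with a floor of 1 CPM and -0.045 after GC correction. That correction left 0 genes past a log2 ratio of 0.32 higher and 1 lower, against 4.91% and 4.89% of all genes. EV-siYAP1 against EV-siNC had 2 past 0.32 higher with a floor of 1 CPM, and EV-siCII against EV-siNC had 1 with library totals or the GC correction. The cause of these changes was not tested. Of the summary values under alternatives, 104 stayed close to the main value and 14 medians moved. A further 14 were counts of genes that fell well below the main count, and 5 were counts that rose well above it. Single-gene values were taken only for the genes followed, not for all genes of the pathway. Of these values 286 kept their direction and side or size, 27 lost the call, 2 moved and 6 changed sign. With 2 libraries per group, or 1, the replicate number limits the precision of every value.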
